A study of Triticum aestivum with 12 samples.

Results

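Genes of bread wheat that lie on unplaced scaffolds were examined in flag leaves of 4 varieties. These genes, called U genes here, were taken as every identifier that starts with TraesCSU02G and that reached 10 or more in at least 3 of the 12 libraries. Of 2498 U identifiers in the table, 537 met this rule, among 44026 genes that met it in the whole table. The other 43489 genes carry a chromosome from 1A to 7D in their identifier and are called placed genes.

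The study asked whether modern Canadian bread wheat varieties that differ in leaf wax also differ in gene expression. The sampled leaves came from AAC Concord, AAC Magnet, AAC Starbuck and AAC Tradition, called Concord, Magnet, Starbuck and Tradition as in the sample titles, with 3 libraries per variety, all labelled as control treatment. The labels describe leaves from field plots, whereas the methods place the sequenced plants in a greenhouse, and the values cannot settle which is right. The variety is the only factor in which the groups differ, and no mutant, transgene or drought sample is among the 12 libraries. No source states that the replicates were separate plants or pools, so p-values measure the spread between these libraries.

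Bread wheat is a hexaploid that carries the A, B and D subgenomes, and many genes are present as a set of close copies. Its reference sequence was assembled from the landrace Chinese Spring, and stretches that could not be assigned to a chromosome, often because they are repetitive or closely resemble another stretch, are grouped under the name U. A modern variety can lack a stretch that Chinese Spring has, or carry a diverged form of it, and short reads are then counted for that gene poorly or not at all. The name U therefore describes an assembly and not a pathway, and no function is given here to a U gene, because no source used here describes them. For the same reason neither sequences nor positions on a scaffold are shown.

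All values are normalized counts, not corrected for gene length. The values of a library summed to 5077330 to 5902642, and a library held 58024 to 61166 genes above 0. Low values rose in steps of 0.798 to 1.24, which, taken as 1 read, place the depth at 4484523 to 7095082 reads per library. Of the 3 TaCER1-1 genes listed by the study, which belong to alkane synthesis of the leaf wax, TraesCS1A02G150900 and TraesCS1B02G168500 were above 0 in all 12 libraries and TraesCS1D02G147900 in 10, the last at no more than 7.42. Other leaf markers were not checked.

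Most U identifiers were silent or near silent in the flag leaf. In total, 1268 of the 2498 (50.8%) were at 0 in every library, compared with 30.5% of placed identifiers. Another 693 were above 0 somewhere but did not reach the minimum. The share that passed was 21.5% for U and 41.5% for placed genes, and among identifiers above 0 it was 43.7% and 59.6%. The minimum divided a continuous range. TraesCSU02G144600 and TraesCSU02G199500 were just inside, with 10.02 and 10.28 as the value that the rule turns on, the lowest of the 3 highest, and TraesCSU02G158700 and TraesCSU02G016400 were just outside, both at 9.95. There were 13 U identifiers for which this value lay from 9 to under 10 and 12 from 10 to under 11.

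Levels of the U genes covered a wide range. The median of their 12-library means was 35.2, with quartiles of 15.9 and 88.2, and the median of placed genes was 46.3. These are medians over different genes whose lengths were not used, so they describe counts only. Of the U genes, 435 (81.0%) were above 0 in all 12 libraries, compared with 95.9% of placed genes. For 19 U genes (3.54%) and 547 placed genes (1.26%), the minimum was reached in the libraries of 1 variety only, so that these had to differ between varieties to be included. The share of U genes at 10 or more in all libraries of all varieties was 53.8%, against 71.0% of placed genes.

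Starbuck libraries held the most U genes at 10 or more, 442 to 457 of the 537, and Concord libraries the fewest, 411 to 425. Magnet held 430 to 438 and Tradition 432 to 439. The ranges of Starbuck and Concord did not overlap with those of the other varieties, while Magnet and Tradition overlapped. Starbuck was also highest and apart for placed genes, with 89.7% to 91.2% of them at 10 or more, against 82.3% to 85.1% of U genes. In Concord it was 87.8% to 88.2% of placed genes, which overlapped with the 87.4% to 88.3% of Tradition. In bulk samples such as these, fewer cells of a type and less RNA per cell cannot be told apart for any difference that follows. Nor can either be told apart here from a stretch that a variety lacks or carries in a diverged form.

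All 2498 U identifiers together, including those below the minimum, took 1.33% to 2.31% of a library's total. The 3 libraries of Concord held 1.43% to 1.50% and those of Magnet 1.33% to 1.37%. In Starbuck the share was 1.43%, 1.44% and 2.31%, and in Tradition it was 2.16%, 1.59% and 1.43%. Means were 1.73% ± 0.50 in Starbuck, 1.46% ± 0.038 in Concord, 1.35% ± 0.022 in Magnet and 1.73% ± 0.38 in Tradition (SD, n = 3). Over the 537 U genes alone, the means were 1.71%, 1.44%, 1.33% and 1.71% in the same order. The larger means of Starbuck and Tradition thus rested on 1 library each, the third of Starbuck and the first of Tradition, and the other libraries of these varieties held 1.43% to 1.59%. No test was made of the shares.

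A single gene carried much of this sum. TraesCSU02G056800, the U gene with the highest mean, made up 13.9% to 35.8% of the counts of all U identifiers in a library. It was at 12437, 10195 and 45506 in Starbuck, at 17440, 16299 and 21132 in Concord, at 11237, 11736 and 11773 in Magnet and at 37841, 19616 and 19150 in Tradition. The ranges of Starbuck covered those of all other varieties, and the gene did not pass limma's F test across varieties (adjusted p = 0.37). Without the third library of Starbuck, the adjusted p was 0.033. With the gene left out, the U share of the total was 1.31% ± 0.15 in Starbuck, 1.14% ± 0.0095 in Concord, 1.13% ± 0.017 in Magnet and 1.28% ± 0.20 in Tradition. By library it was 1.20% to 1.48% in Starbuck, 1.13% to 1.15% in Concord, 1.12% to 1.15% in Magnet and 1.11% to 1.49% in Tradition. All Starbuck libraries then lay above those of Concord and Magnet, and the range of Tradition overlapped with every other variety.

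**Figure D1:**
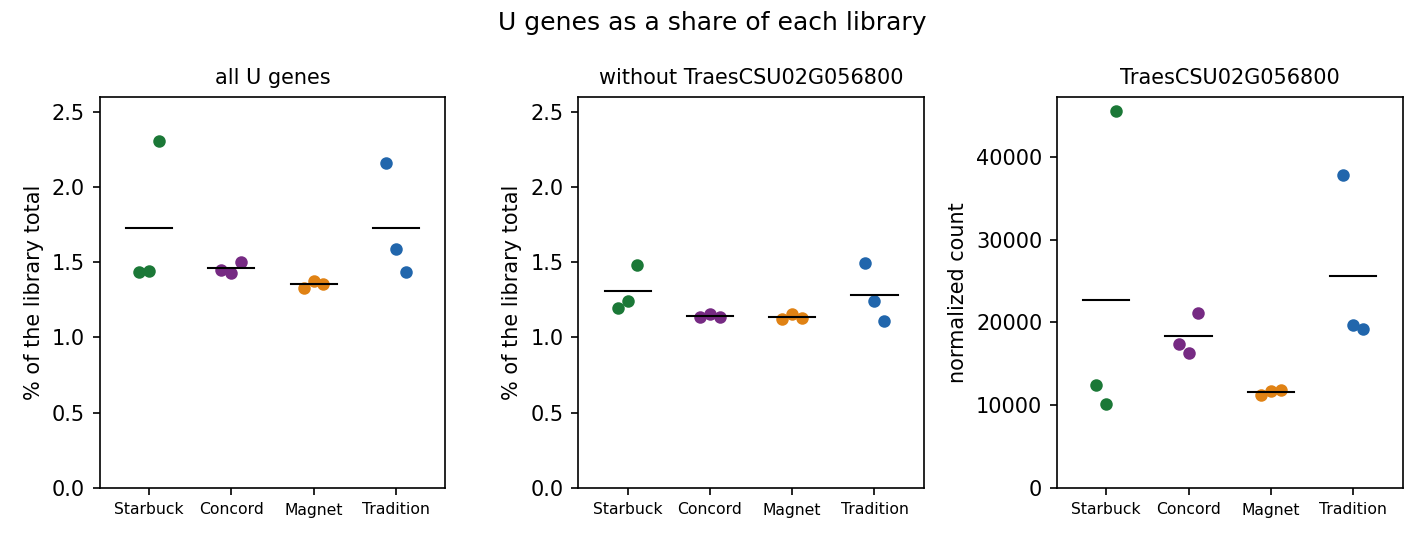
Left and middle, percentage of each library's total taken by all 2498 U identifiers and by these without TraesCSU02G056800. Right, normalized count of TraesCSU02G056800. Points are the 3 libraries of each variety and lines their mean; the third Starbuck library (45506) and the first Tradition library (37841) lie above the rest.

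The next genes by mean followed the same libraries. TraesCSU02G249800 was highest in the first library of Tradition (13048) and the third of Starbuck (11066), with the others at 3033 to 6920. TraesCSU02G263900 was highest in the same pair, at 10201 and 8232, and lay at 2492 to 5499 elsewhere. Neither passed the F test (adjusted p = 0.27 and 0.32). These 3 genes were highest together in the same pair of libraries, 1 from each of those varieties, and whether those libraries differ in RNA quality or sampling was not tested.

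The remaining genes of the top 5 were steadier within varieties. TraesCSU02G063400 was at 3895, 4218 and 4687 in Concord and at 2454 to 2504 in Magnet, with Starbuck at 2401 to 3295 and Tradition at 3127 to 4092. It passed the F test (limma, adjusted p = 0.020), though not without the second or the third library of Concord, where the adjusted p rose to at most 0.060. TraesCSU02G270000 was at 2467, 3068 and 2724 in Concord and at 1321, 1063 and 1470 in Magnet, a log2 fold change of 1.11 ± 0.16 (SE; limma, adjusted p = 0.00081). The other varieties lay between these groups, at 1992 to 2270.

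U genes differed between varieties in a larger share than placed genes. With p-values adjusted over all 44026 genes, limma's F test between the varieties passed 204 of 537 U genes (38.0%), against 22.1% of all genes tested and 21.9% of placed genes. The share was 21.8% on subgenome A, 25.6% on B and 18.5% on D. Ordered by this share, U ranked 1 among 22 groups of genes, that is 21 chromosomes and U. Chromosome 6B came next with 32.1%, then 2B with 28.8%, and 4D was last with 15.4%. The difference between U and placed genes is a description and was not tested, since genes are not replicates and neighbouring genes vary together.

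**Figure D2:**
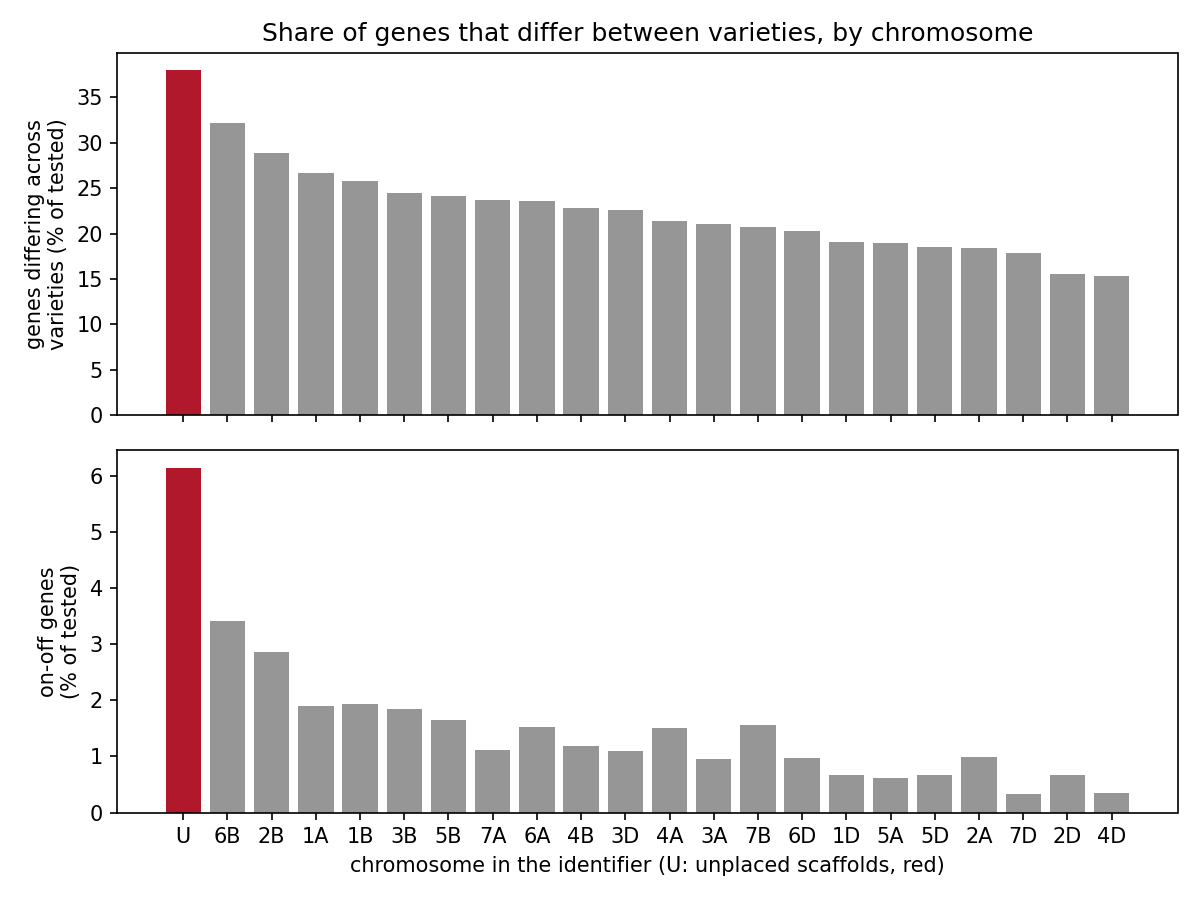
Percentage of genes tested that differed across the 4 varieties (top, limma F test, adjusted p under 0.05) and that were on-off between varieties (bottom), for each chromosome in the gene identifier, ordered by the top panel. U (red) had the highest bar in both panels, 38.0% and 6.15%.

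The larger share was not limited to genes that were weak or that passed through 1 variety. Without the genes that reached the minimum in 1 variety only, 188 of 518 U genes (36.3%) passed, against 21.1% of placed genes. Among genes above 0 in all libraries it was 142 U genes (32.6%), against 19.7%. By mean level, the share for U and placed genes was 38.2% and 25.0% under 20, 38.6% and 20.1% from 20 to 100, and 37.2% and 21.3% from 100 to 1000. The order turned only at 1000 and above, where 2 of 8 U genes passed (25.0%) and 43.2% of placed genes did. U genes also varied more between libraries of a variety, with a median SD of 0.378 on the log2 scale against 0.301 for placed genes, so the larger share did not come with a smaller spread.

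Between pairs of varieties, a gene was called differentially expressed (DEG) where its adjusted p was under 0.05 and its log2 fold change exceeded 1 in either direction. Starbuck against Concord gave the most among U genes, 115 (21.4%, against 9.00% of all genes tested), with 76 higher in Starbuck and 39 lower, where the directions held 5.55% and 3.45% of all genes tested. Concord against Magnet gave 103 (19.2% against 9.26%), with 45 higher and 58 lower in Concord (directions in all genes 4.37% and 4.90%). Concord against Tradition gave 93 (17.3% against 7.05%), with 37 higher and 56 lower in Concord (directions in all genes 2.84% and 4.21%). The pairs without Concord had fewer U DEGs. Magnet against Tradition gave 72 (13.4% against 6.21%), Starbuck against Tradition 64 (11.9% against 4.97%) and Starbuck against Magnet 53 (9.87% against 6.11%).

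In each of the 6 pairs the U share exceeded the share of placed genes, by a ratio of 1.63 in Starbuck against Magnet to 2.50 in Concord against Tradition. The pairs share varieties and are not independent. In Starbuck against Magnet, 35 U DEGs were higher in Starbuck and 18 lower, with 3.72% and 2.40% of all genes tested in these directions. In Starbuck against Tradition it was 37 and 27, with 2.46% and 2.51% of all genes. In Magnet against Tradition, 35 were higher in Magnet and 37 lower, with 2.79% and 3.42% of all genes. This turned to 39 and 31 when all libraries were scaled to the same total, where the mean log2 scaling factors of these varieties differed by 0.12. The balance also turned with scaling unchanged, to 36 and 32 with a pseudocount of 5, to 45 and 41 without the filter, to 17 and 12 with a mean of at least 50, and by a few genes without single libraries, so neither direction is given to this pair. In total, 192 U genes (35.8%, against 19.3% of all genes tested) were a DEG in at least 1 pair. Of these, 63 were so in 3 pairs (11.7% of U genes, against 5.38% of placed genes). Another 13 were so in 5 pairs (2.42% against 0.460%) and 0 in all 6. Across all genes tested, 5 were a DEG in all 6 pairs (0.0114%).

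**Figure D3:**
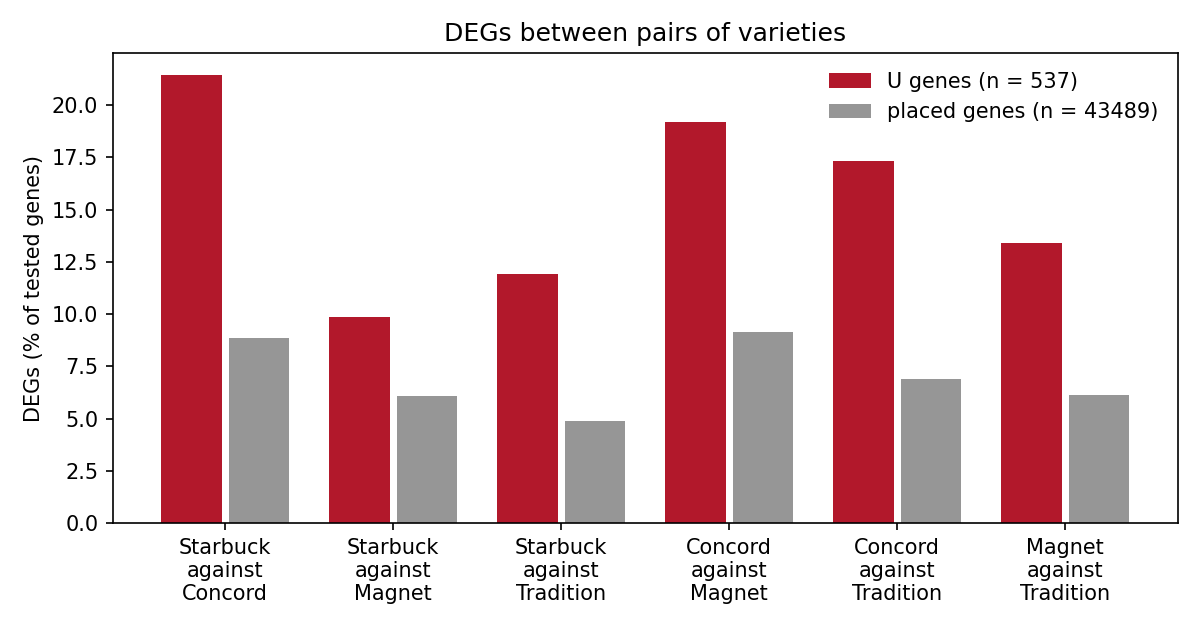
Percentage of tested genes that were DEGs (limma, adjusted p under 0.05 and log2 fold change beyond 1) in each pair of varieties, for 537 U genes (red) and 43489 placed genes (grey). The U bars run from 9.87% to 21.4% and each is above the placed bar beside it.

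Of the 204 U genes that passed the F test, 77 had their lowest mean in Concord, compared with 47 in Magnet, 43 in Starbuck and 37 in Tradition. Placed genes had the same order for the lowest mean, with 32.9% lowest in Concord, against 37.7% of U genes. The highest mean of U genes fell in Starbuck for 62 (30.4%), in Concord for 55 (27.0%), in Tradition for 47 (23.0%) and in Magnet for 40 (19.6%). For placed genes it was 26.9%, 27.0%, 22.6% and 23.5%. Over the U genes, the correlation of log2 values between libraries was 0.878 to 0.922 within a variety and 0.603 to 0.790 between varieties, and over all genes that passed it was 0.938 to 0.963 and 0.813 to 0.893.

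A gene was called on-off if every library of at least 1 variety held 10 or more and every library of at least 1 other variety was listed at 0. There were 33 such U genes (6.15%), against 1.37% of all genes tested and 1.32% of placed genes. U again ranked 1 of 22 groups, followed by 6B (3.41%) and 2B (2.85%). Of the 33, 8 had passed through 1 variety only, and 13 had a mean of at least 50 over the libraries in which they were on. The F test used the same values, so that it passed all 33 adds nothing to the rule. By variety, 15 of the 33 were off in Starbuck, 13 in Tradition, 12 in Concord and 11 in Magnet. Counts of the 572 placed on-off genes had another order, with 176 off in Starbuck, 171 in Tradition, 273 in Concord and 225 in Magnet. The U genes were on in Concord for 17, in Magnet for 15, in Tradition for 14 and in Starbuck for 12, and the placed genes for 207, 235, 258 and 266. None of these orders was tested.

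**Figure D4:**
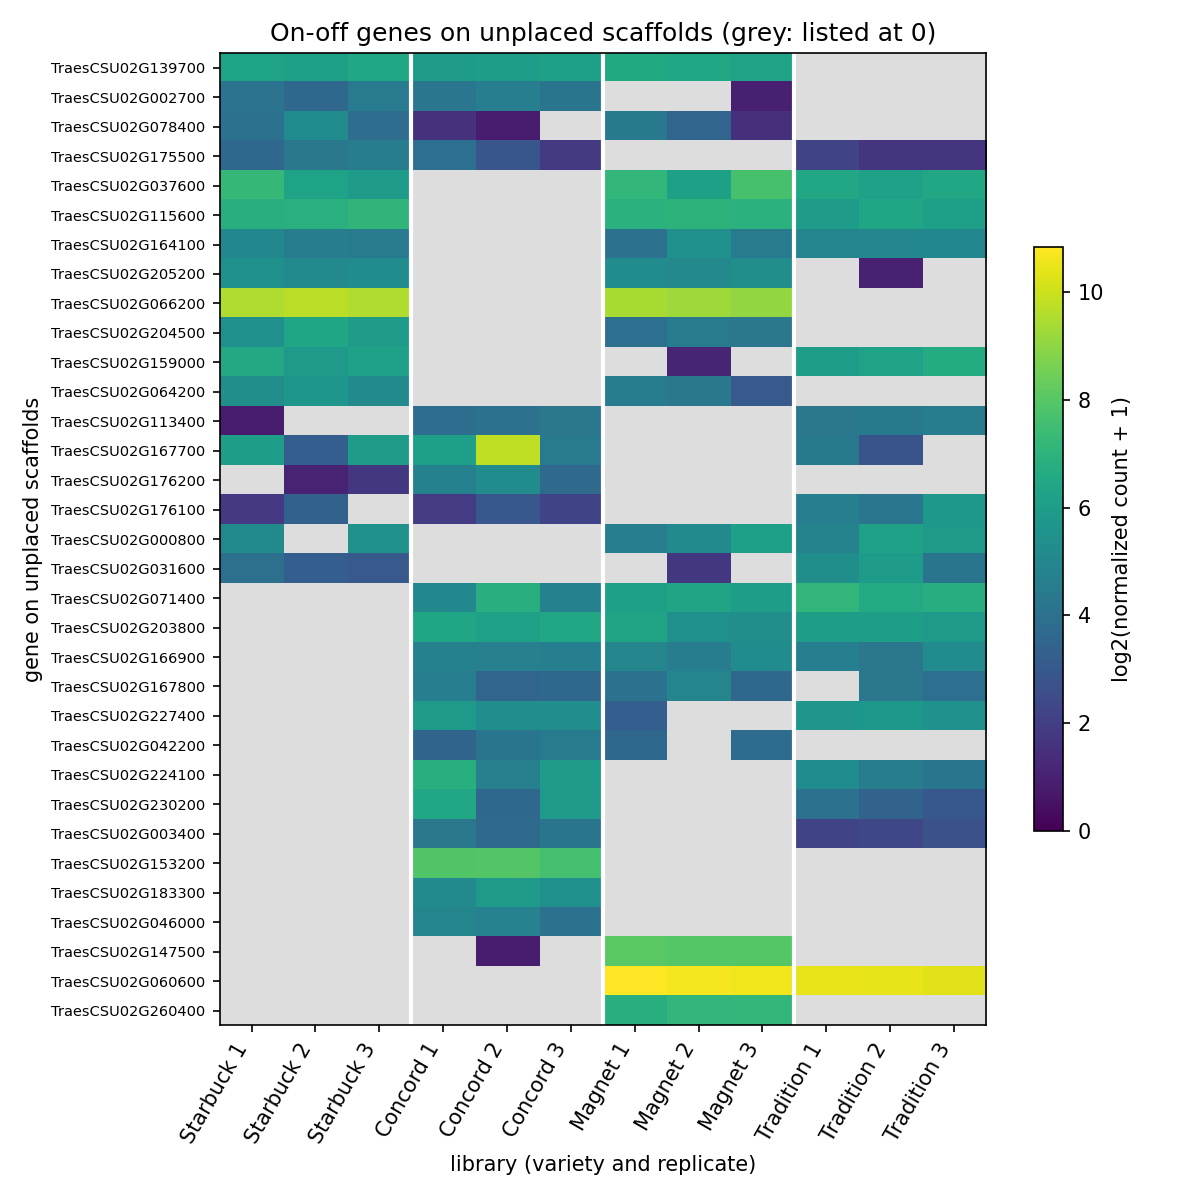
Values of the 33 on-off U genes (rows) in the 12 libraries (columns), as log2(normalized count + 1), with white lines between varieties and grey for a value listed at 0. Blocks of 3 grey cells mark varieties in which a gene was at 0 in every library, as for TraesCSU02G060600 in Starbuck and Concord.

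A fully resolved pattern, on or off in every variety, was held by 15 U genes (2.79%, against 0.563% of placed genes). The strongest was TraesCSU02G060600, which was at 0 in all libraries of Starbuck and Concord. It was at 1822, 1665 and 1545 in Magnet and at 1412, 1390 and 1300 in Tradition. Its SD within varieties, 0.07 on the log2 scale, was the lowest of U genes with a mean of at least 50, but the 6 libraries at 0 add no spread, so the rank describes no steadiness. It divided the varieties along the ecozone for which they were bred, since Magnet and Tradition are Eastern and the other pair Western, and it was the only U gene with this pattern. That gene was 0.186% of U genes. Of placed genes, 8 (0.0184%) had the same pattern and 8 the opposite. On in Starbuck and Magnet alone were 2 U (0.372%) and 12 placed genes (0.0276%). On in Concord and Tradition alone were 1 U (0.186%) and 15 placed genes (0.0345%). A link to the ecozone was not tested.

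TraesCSU02G066200 divided them differently. It was at 742, 834 and 738 in Starbuck and at 687, 599 and 536 in Magnet, and it was at 0 in every library of Concord and Tradition. TraesCSU02G204500, named after its values were seen, shared the pattern at a lower level, with a mean of 40.3 over the libraries in which it was on. The opposite pattern was held by TraesCSU02G224100, at 112, 25.6 and 61.2 in Concord, at 37.2, 22.8 and 17.7 in Tradition and at 0 elsewhere. Its level within Concord varied by more than the distance between the means of both varieties.

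Of genes on in a single variety, 3 belonged to Concord, 1 to Magnet and 0 to either Starbuck or Tradition, and of placed genes it was 25, 16, 11 and 8 in this order. As shares, Concord had 0.559% and Magnet 0.186% of U genes. For placed genes the shares were 0.0575%, 0.0368%, 0.0253% and 0.0184%. Each of the 3 described next passed the minimum through that variety only and was named for being at 0 elsewhere. TraesCSU02G153200 was at 235, 244 and 199 in Concord and at 0 in the other 9 libraries. TraesCSU02G183300 was at 35.7, 55.3 and 42.6 in the same libraries and again at 0 elsewhere. TraesCSU02G260400 was the gene of Magnet, at 108, 140 and 145. Outside the naming rule and chosen after its values were seen, TraesCSU02G147500 was at 263, 247 and 253 in Magnet and at 0 elsewhere except for 0.823 in the second library of Concord, close to the value of 1 read.

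Of genes off in a single variety, 3 were off in Starbuck, 3 in Concord, 1 in Tradition and 0 in Magnet, and of placed genes it was 22, 65, 10 and 20. As shares, these were 0.559%, 0.559%, 0.186% and 0% of U genes. For placed genes they were 0.0506%, 0.149%, 0.0230% and 0.0460%. TraesCSU02G115600 was at 0 in Concord, at 109, 115 and 136 in Starbuck, at 121, 127 and 122 in Magnet and at 63.1, 83.2 and 68.4 in Tradition. TraesCSU02G037600 was also at 0 in Concord and varied widely elsewhere, from 60.7 to 206. TraesCSU02G139700 was at 0 in Tradition and at 62.9 to 96.0 in the other varieties. TraesCSU02G203800 was off in Starbuck and at 40.0 to 88.8 elsewhere, and TraesCSU02G071400, off in the same variety, was at 26.1 to 138.

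U genes were also often at 0 and at 10 or more among libraries of the same variety. This held for 41 of 537 (7.64%), compared with 0.658% of placed genes, and 7 U genes (1.30%) were at 0 beside a value of at least 50, compared with 0.0759% of placed genes. TraesCSU02G258200 was at 0 in 1 library of each variety and at 19.0 to 180 in the others. TraesCSU02G192800 was at 0 in the second libraries of Concord and Magnet and the first of Tradition, and at 52.4 to 184 elsewhere. Neither differed across varieties (limma F test, adjusted p = 0.99 and 0.75), and they had the largest spread within varieties of the U genes with a mean of at least 50.

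Next in spread was the on-off gene TraesCSU02G167700, which was at 0 in all libraries of Magnet. It was at 67.5, 889 and 20.4 in Concord, at 64.4, 8.30 and 61.5 in Starbuck and at 19.8, 5.95 and 0 in Tradition. Of the 41 genes that were both at 0 and at 10 or more within a variety, 4 were on-off genes and 6 passed the F test. Without these 41, the on-off share was 5.85% for U, against 1.28% for placed genes treated alike, and the share that passed the F test was 39.9%, against 22.0%. Salmon divides reads among similar transcripts, and how far that division sets a 0 in such a gene was not tested.

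Genes that were counted in every library and changed in level were led by TraesCSU02G214700. It was at 1673, 1697 and 1495 in Starbuck, at 85.3, 128 and 41.7 in Concord, at 2011, 2153 and 1170 in Magnet and at 8.67, 9.92 and 3.32 in Tradition. Starbuck and Magnet overlapped, and Concord and Tradition each lay apart from them and from each other. The log2 fold change was 7.80 ± 0.43 for Magnet against Tradition (SE; limma, adjusted p = 5.4e-07), 4.38 ± 0.43 for Starbuck against Concord (adjusted p = 5.3e-05) and 3.34 ± 0.43 for Concord against Tradition (adjusted p = 0.00051). Starbuck and Magnet differed by -0.08 ± 0.43 (adjusted p = 0.94).

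Tradition was also the low variety of TraesCSU02G153700, at 23.5, 15.9 and 13.3, with Concord at 397, 398 and 480. Starbuck, at 118 to 171, and Magnet, at 152 to 173, lay between them and overlapped. The log2 fold change of Concord against Tradition was 4.55 ± 0.21 (limma, adjusted p = 1.1e-07). In TraesCSU02G131900 the extremes were Tradition, at 147, 192 and 182, and Magnet, at 11.5, 15.5 and 9.78, a log2 fold change of -3.73 ± 0.26 for Magnet against Tradition (adjusted p = 3.5e-06). Starbuck and Concord overlapped between them, at 31.1 to 61.0.

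TraesCSU02G062000 had levels in pairs. Starbuck was at 117, 118 and 113 and Magnet at 129, 105 and 126, while Concord was at 410, 412 and 429 and Tradition at 482, 551 and 532. The groups did not overlap between the low and the high pair, and Starbuck against Tradition gave -2.16 ± 0.13 on the log2 scale (limma, adjusted p = 1.6e-06). It had the same division of the varieties as TraesCSU02G066200 and TraesCSU02G224100. TraesCSU02G183800 was high in Magnet alone, at 147, 153 and 130, with the other varieties at 17.1 to 44.8. Starbuck against Magnet gave -2.04 ± 0.22 (adjusted p = 0.00019).

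**Figure D5:**
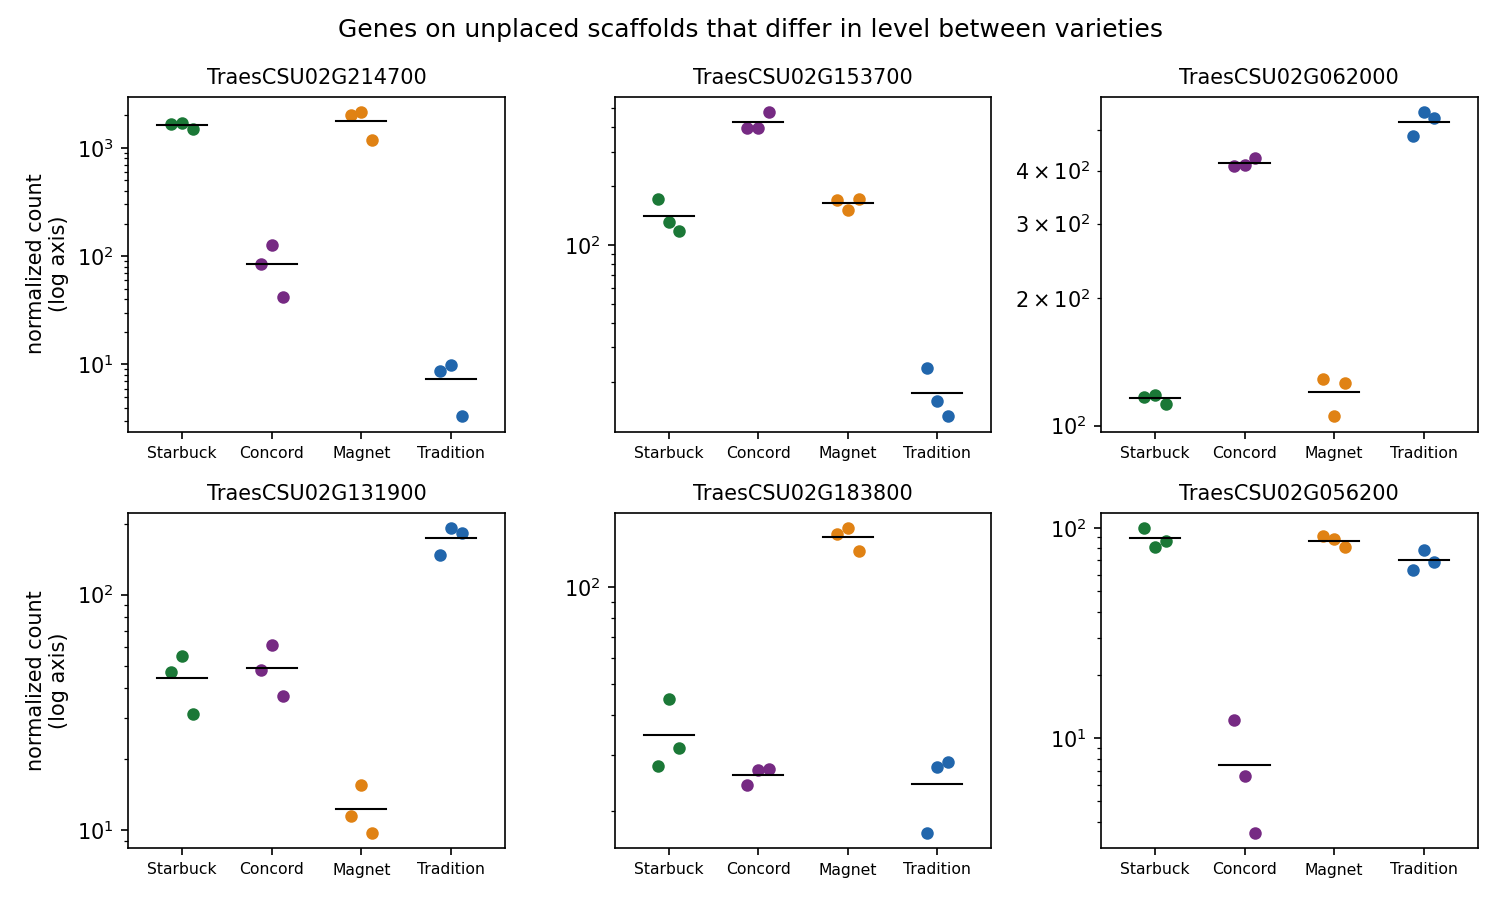
Normalized counts of 6 U genes on a log axis with its own range in each panel, with a point for each of the 3 libraries of a variety and a line at their mean. TraesCSU02G214700 spans the widest range, from 3.32 in Tradition to 2153 in Magnet.

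Several U genes were low in Concord. TraesCSU02G056200 was at 12.2, 6.60 and 3.55 there and at 63.2 to 99.9 in the other varieties, which gave a log2 fold change of 3.55 ± 0.30 for Starbuck against Concord (limma, adjusted p = 1.5e-05). The other varieties did not pass the test against each other. TraesCSU02G176800 was at 12.2, 7.42 and 8.87 in Concord and at 236, 178 and 131 in Tradition, a log2 fold change of -4.10 ± 0.46 (adjusted p = 0.00017). TraesCSU02G126700 was instead high in Concord, at 114, 144 and 106, with Tradition at 49.6 to 55.6, Magnet at 9.43 to 22.7 and Starbuck at 3.99 to 15.6. Starbuck against Concord gave -3.55 ± 0.42 (adjusted p = 0.00021).

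Starbuck was low in TraesCSU02G001100 and TraesCSU02G200900. The first was at 184, 117 and 162 there and at 256 to 949 elsewhere, and Starbuck against Magnet gave -1.92 ± 0.35 (limma, adjusted p = 0.0069). The second was at 43.6, 38.4 and 127 there and at 236, 303 and 432 in Concord, which gave -2.37 ± 0.44 (adjusted p = 0.0049). TraesCSU02G009400 was high in Starbuck, at 133, 272 and 130, and low in Magnet, at 24.1, 9.54 and 8.89, a difference of 3.61 ± 0.50 (adjusted p = 0.0011). Its difference between Magnet and Tradition, -2.27 ± 0.50 (adjusted p = 0.017), did not pass without the second or the third library of Magnet or the first of Tradition.

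A pair of genes named by the size of their change were near the limit of the test. TraesCSU02G113900 was at 928, 1352 and 411 in Concord and at 38.8, 188 and 43.6 in Magnet, with a difference of 3.53 ± 0.82 (limma, adjusted p = 0.016) that was lost without the first or second library of Concord or the first or the third of Magnet. Its F test across varieties (adjusted p = 0.036) was lost without any of these or the second library of Starbuck, at up to 0.096. TraesCSU02G169600 was at 98.9, 128 and 123 in Starbuck and at 17.8, 38.2 and 30.2 in Magnet, with a difference of 2.04 ± 0.53 (adjusted p = 0.038), although its F test across varieties gave an adjusted p of 0.067, or 0.015 without the last library of Tradition. The difference was lost without any single library of these varieties or the first of Concord.

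Among U genes with little change, TraesCSU02G005000 was at 1065 to 1410 in all 12 libraries. Its SD within varieties was 0.08 on the log2 scale, and the F test gave an adjusted p of 0.43. Such a gene was counted evenly in every variety at a level close to that of TraesCSU02G060600 where the latter was on.

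U genes next to each other in the identifier order were also compared. Of 181 pairs of U genes with consecutive identifiers, 15 (8.29%) had a correlation above 0.8 over the 12 libraries, compared with 2.91% of such pairs of placed genes. Opposite patterns, with a correlation below -0.5, were held by 10.5% of these U pairs and 6.09% of placed pairs. For genes 10 places apart in the order, 0.759% of U pairs and 0.922% of placed pairs were above 0.8, and 10.6% and 7.70% below -0.5. These correlations follow the varieties as well as the libraries and carry no test, and whether consecutive U identifiers lie on the same scaffold was not examined. Chosen after their values were seen, TraesCSU02G037700 and TraesCSU02G037800, which follow TraesCSU02G037600, were likewise at 0 to 0.887 in Concord. Elsewhere TraesCSU02G037700 was at 25.5 to 50.7 and TraesCSU02G037800 at 25.5 to 62.3, with no overlap with Concord. The identifier before them, TraesCSU02G037500, was at 10 or more in every library, Concord included. It correlated with TraesCSU02G037600 at 0.152. Chosen in the same way, TraesCSU02G008100, TraesCSU02G008200 and TraesCSU02G008300 were high in Starbuck together. TraesCSU02G008200 was at 75.8, 122 and 78.2 there, at 0.825 to 2.66 in Concord and at 7.94 to 22.7 in the other varieties.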

How the data were processed

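The authors trimmed the reads with Trimmomatic, quantified them with Salmon against IWGSC RefSeq v2.1 and used DESeq2. The labels also name CASAVA, and versions are not given in the sources used here. The deposited signal values, in 12 columns, are normalized counts, and how they were normalized is not stated. Identifiers are those of annotation 1.1, and 0 of them matched the RefSeq table of 155467 genes. Of the low values in a library, those of up to 5 steps, most were whole multiples of the step, within 0.05 of a step. The share was 93.8% to 97.8% of low values of U genes and 93.2% to 94.6% of those of placed genes. Reads were not recovered and no count model was run. Intervals for counting error were not computed.

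Limma 3.58.1 in R 4.3.3 was run on log2(value + 1) for all 44026 genes, in a single fit with variety as the only term (8 residual and 2.80 prior degrees of freedom), with Benjamini-Hochberg adjustment over all of them. Fold changes are on this scale, which understates those of low genes. The fit was tested on simulated data. Python 3.11.15, numpy 2.4.6, pandas 2.3.3 and matplotlib 3.10.9 did the rest.

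The rule for named genes took, per variety, the 2 highest genes on or off in it alone. For each split of the varieties into pairs, it took the highest on-off gene. For each pair of varieties, it took the 2 largest changes each way among DEGs with a mean of at least 50, no overlap and no 0. It also took the 5 highest means, and the 3 smallest and 3 largest SDs within varieties where the mean reached 50. It named 33 genes. Runs of on-off genes were also sought, and there were 0. Members, lists and rules were chosen with earlier results of these data known. Alternatives were other pseudocounts, filters, scalings, thresholds, a trend, a block for the replicate number, separate fits for each pair and each library left out.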

Additional observations from a re-analysis of the deposited data

How the results depend on the processing

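No tested fold change of a named gene changed sign, and in all pairs but Magnet against Tradition the direction with more U DEGs stayed the same. In Magnet against Tradition, 35 higher and 37 lower in Magnet, it turned under 10 alternatives, among them the same total (39 and 31), a pseudocount of 5 (36 and 32) and each Tradition library left out (30 and 27, 31 and 28, 34 and 29). Restricting the fit to genes with a mean of at least 50 left 224 U genes and 20705 placed genes to test. Of these, 103 U genes and 5977 placed genes passed the F test. U DEGs were then 36 in Starbuck against Concord, 16 against Magnet and 24 against Tradition. They were 33 in Concord against Magnet, 35 against Tradition and 29 in Magnet against Tradition. In the same order, placed DEGs were 730 higher and 562 lower in the first variety, 486 and 396, and 297 and 529. For the pairs without Starbuck they were 727 and 752, 394 and 687, and 369 and 567. Counting a gene as on from 20 gave 21 on-off U genes and 331 placed genes, against 33 and 572 under the main rule. Counting it as off up to the value of 3 reads gave 53 and 1074. The share of library totals taken by all U identifiers but the 5 highest was 1.01% in Starbuck, 0.880% in Concord, 0.948% in Magnet and 0.936% in Tradition. This puts Concord below Magnet. Without the highest alone, an alternative chosen after seeing the data, the share was 1.14% in Concord, 1.13% in Magnet and 1.28% in Tradition. With each library left out in turn, 172 to 196 U genes passed the F test, and the ratio of the U to the placed share was 1.77 to 1.89. On-off counts were 33 to 41 for U genes and 591 to 629 for placed genes. U DEGs were then 90 to 120 in Starbuck against Concord, 41 to 57 against Magnet and 48 to 64 against Tradition. Placed DEGs were also fewer where U DEGs were fewest. Without the second Starbuck library they were 1748 higher and 1165 lower in Starbuck than in Concord, against 2366 and 1481 in the main fit. Against Tradition they were then 714 and 869, and in the main fit 1044 and 1079. Without the first Magnet library, Starbuck against Magnet gave 1252 and 724, and in the main fit 1601 and 1038. They were 82 to 106 in Concord against Magnet, 74 to 94 against Tradition and 56 to 74 in Magnet against Tradition. Without the third Starbuck and the first Tradition library together, also chosen after seeing the data, 155 passed the F test and the ratio was 1.87. Among tests of the named genes, 1240 values stayed on their side of the threshold, 27 lost the call and 7 gained it over all alternatives. Whether replicate numbers pair the libraries was not tested. Residuals of libraries with the same number correlated at -0.139 to 0.212, with a median of 0.029. Those of libraries with different numbers correlated at -0.227 to 0.184, with a median of -0.0067. For 7 of 12 libraries, the highest of these correlations was with a same-number library. With the replicate block, 194 U genes passed the F test and the ratio was 1.79. In the main fit the ratio was 1.73. It was lower without the filter (1.52) and with a mean of at least 50 (1.59). A trend gave 1.64 and the same total 1.67. The depth limits genes near the minimum of 10. No gene lengths, scaffold positions or copies of U genes elsewhere in the genome were examined.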
